A study of Homo sapiens with 36 samples.

Results

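The 8 genes NFKB1, NFKB2, RELB, NFKBIA, NFKBIZ, TNFAIP3, TNIP1 and BIRC3 encode components and regulators of the NF-kB pathway, and they were examined among 20007 protein-coding genes of chromosomes 1 to 22, X and Y. They were chosen by name, as pathway genes that NF-kB itself switches on. Peaks within 3 kb of any of their GENCODE start sites on hg38 were taken as promoter peaks, and merged peaks of the Jun family (JunB, Jun and JunD) lying up to 100 kb from a start as Jun-family regions. Chromatin immunoprecipitation followed by sequencing (ChIP-seq) had been done in 36 samples, in 18 groups of 2 replicates, 4 of the samples being input without an antibody. The lines were A549, derived from a lung adenocarcinoma, and BEAS-2B (B2B), immortalized non-cancerous bronchial epithelial cells. No label named a treatment, and each condition was a single cell line. RNA polymerase II (pol II), H3K4me3, H3K27ac, the Mediator subunit Med1 and the 3 Jun-family proteins had a peak list in both lines, and CTCF and the cohesin subunit Rad21 had a list used here in B2B alone.

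NF-kB is a family of dimeric transcription factors that IkB proteins hold inactive in the cytoplasm until inflammatory or stress signals destroy the inhibitor. The released dimers bind kappaB sites and switch on, among many targets, the genes of their own subunits and inhibitors, so that the response limits itself. Jun proteins belong to AP-1, a second family of stress-responsive factors that often occupies the same promoters and enhancers in epithelial cells.

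The 16 lists held 8563 to 61225 peaks, and replicates had been merged before peaks were called, so each target and line gave 1 list, no replicate error could be estimated and no test of a difference between the lines was made. Of these lists, 12 reached chromosome Y and 4 ended early: H3K27ac of A549 on chromosome 13, Med1 of both lines on chromosome 15, and pol II of A549 at the start of chromosome 20. NFKBIA and RELB could therefore not be scored for A549 H3K27ac, nor RELB for Med1. The epithelial genes KRT8, KRT18, EPCAM and CDH1 and the mesenchymal genes VIM, CDH2 and ZEB1 had promoter H3K4me3 in both lines, and PECAM1, an endothelial gene, had none in either. PTPRC, a leukocyte gene, had 1 A549 H3K4me3 peak of fold 5.03 and none in B2B, and CDKN2A, which is deleted in A549, had none in A549 and 7 in B2B.

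The sequences printed here are examples of Jun-family summits with a motif match. The motifs were AP-1 (TGACTCA, on either strand), a cyclic AMP response element (CRE, TGACGTCA) and kappaB. Each site had the highest Jun-family fold, summed over both lines, of its gene and class (shared, A549 only or B2B only). They were not the strongest sites of all, and other sites chosen in that way had no match. The shared sites of NFKB1 (summed fold 68.5) and NFKBIZ (45.3) had none, while the printed RELB and TNIP1 sites had summed folds of 18.6 and 16.6. Each window runs 50 bases to either side of the summit, on the plus strand of hg38, with matches in capitals. The windows are the TNFAIP3 promoter (chr6:137866910-137867010), a region downstream of NFKBIA (chr14:35374466-35374566), the RELB promoter (chr19:45001291-45001391), the outermost part of TNIP1 (chr5:151092940-151093040) and a region upstream of BIRC3 (chr11:102256396-102256496).
TNFAIP3 promoter, shared: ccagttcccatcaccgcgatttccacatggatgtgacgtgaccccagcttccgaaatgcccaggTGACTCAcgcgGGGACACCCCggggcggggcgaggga
NFKBIA downstream, shared: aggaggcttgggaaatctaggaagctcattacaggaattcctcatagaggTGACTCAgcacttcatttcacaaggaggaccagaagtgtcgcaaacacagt
RELB promoter, A549 only: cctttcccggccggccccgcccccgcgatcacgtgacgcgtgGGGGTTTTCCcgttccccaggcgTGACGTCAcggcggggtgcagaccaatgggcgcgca
TNIP1 first intron, B2B only: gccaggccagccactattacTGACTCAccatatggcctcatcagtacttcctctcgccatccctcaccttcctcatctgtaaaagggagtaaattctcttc
BIRC3 upstream, B2B only: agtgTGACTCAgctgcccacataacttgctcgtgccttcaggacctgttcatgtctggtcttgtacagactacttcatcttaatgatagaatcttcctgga

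The promoters of NFKBIA and BIRC3, from the RefSeq promoter table on hg38 and read 5′ to 3′ on the strand of the gene, show the kappaB motif in capitals. The 250 bases before the start are at chr14:35404750-35404999 for NFKBIA, on the minus strand, and at chr11:102317234-102317483 for BIRC3, on the plus strand.
NFKBIA promoter: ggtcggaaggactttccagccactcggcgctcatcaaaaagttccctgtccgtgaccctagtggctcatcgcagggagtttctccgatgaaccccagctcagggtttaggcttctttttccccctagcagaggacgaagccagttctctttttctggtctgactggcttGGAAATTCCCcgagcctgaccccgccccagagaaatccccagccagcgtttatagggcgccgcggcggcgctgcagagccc
BIRC3 promoter: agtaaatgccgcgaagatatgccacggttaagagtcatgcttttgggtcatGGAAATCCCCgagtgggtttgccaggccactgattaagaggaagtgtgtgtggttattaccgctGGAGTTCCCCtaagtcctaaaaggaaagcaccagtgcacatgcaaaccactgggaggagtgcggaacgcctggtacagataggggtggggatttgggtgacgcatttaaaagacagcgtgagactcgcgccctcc
The table held 7 of the 8 genes, RELB being the exception. A kappaB motif lay in these 250 bases in 6 of the 7, all but NFKB1, against 9.96% of 35116 promoters of the table. The genes were chosen as genes that NF-kB switches on, so a high share was favoured by the choice and is not independent evidence. AP-1 was found in 0 of the 7 against 4.2% of promoters, and CRE in 0 against 1.65%. A match is a description of the letters, and its absence says nothing about binding of a factor.

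To compare the lines, the height of each peak had to be put on a common scale, because the backgrounds differed. The deposited fold is the pileup of reads at the summit over a local background set by the peak caller. At promoters with a pol II peak in both lines, the median local background was 1.53 times the genome-wide background in A549 and 20.7 times in B2B. The same medians were 1.49 and 17.5 times for H3K4me3 and 1.88 and 22 times for H3K27ac, but 1.64 and 1.71 times for Med1. Where B2B peaks of other targets lay at a B2B pol II summit, the median ratio of their local background to that of pol II was between 0.916 and 1.05 for every target except Med1, for which it was 0.14. The B2B lists other than Med1 thus had nearly one local background, high at active promoters, and B2B folds there were low for the same pileup. The "summit level" used here is therefore the summit pileup over the genome-wide background of its list, and intervals of ratios cover counting error only.

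All 8 genes carried the marks of active promoters in both lines. H3K4me3, which marks active start sites, was present at 8 of 8 genes in A549 (73.7% of all genes) and 8 of 8 in B2B (62.7%). H3K27ac, a mark of active promoters and enhancers, was present at 6 of 6 scored genes in A549 (73.5%) and 8 of 8 in B2B (64.9%). Med1 was present at 7 of 7 in A549 (54.7%) and 7 of 7 in B2B (61.1%). Pol II was found at 8 of 8 genes in A549 (69.6%) and 6 of 8 in B2B (50.9%), with TNFAIP3 and BIRC3 lacking a B2B peak. Among the 12172 genes with H3K4me3 in both lines, 79.8% had B2B pol II. A pol II peak in A549 only was seen at 2 of the 8 genes against 19.5% of genes, and in B2B only at none against 1.84%. The 6 of 8 genes with B2B pol II (75%) thus lay near the share of genes active in both lines. The 8 genes had a median of 12 annotated start sites, against 5 for all genes and 7 for genes with H3K4me3 in both lines, so more sequence was searched at them.

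**Figure D1:**
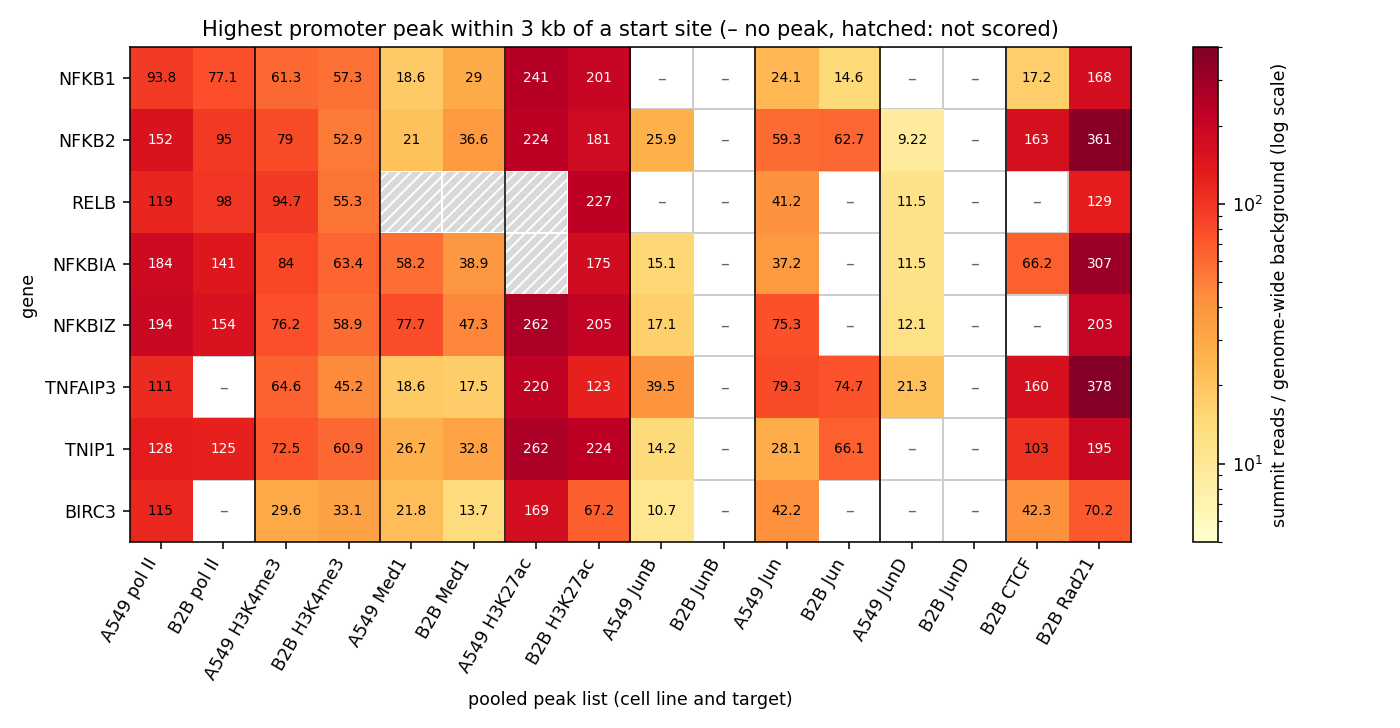
Summit level (summit reads over the genome-wide background, colour on a log scale, value printed in each cell) of the highest promoter peak of the 8 genes (rows) in the 16 peak lists (columns), with a dash for no peak and hatching where a gene could not be scored. H3K4me3 is filled at all 8 genes in both lines, while JunB and JunD are filled at 6 and 5 genes in A549 and at none in B2B.

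The subunit genes were active in both lines, and NFKB2 had more pol II and less Med1 in A549. NFKB1, which encodes the p105 precursor of p50 (chr4:102501330-102617302, plus strand), had pol II at 93.8 in A549 and 77.1 in B2B, with a ratio of 1.22 (0.957 to 1.55). Its H3K27ac stood at 241 and 201, and its Med1 at 18.6 and 29.0, with a ratio of 0.642 (0.365 to 1.11). Only H3K27ac of these 3 had an interval above 1, at 1.01 to 1.41. That interval held the median H3K27ac ratio of 1.28 over all genes with peaks in both lines. NFKB2, which encodes the p100 precursor of p52 (chr10:102394110-102402524, plus strand), had pol II at 152 in A549 and 95 in B2B, with a ratio of 1.61 (1.31 to 1.97). The NFKB2 pol II interval held the all-gene median of 1.33. Med1 of NFKB2 went the other way, at 21.0 and 36.6, a ratio of 0.575 (0.342 to 0.945) against an all-gene median of 1.04. RELB, the transactivating partner of p52 (chr19:45001461-45038192, plus strand), had pol II at 119 and 98.0, a ratio of 1.21 (0.979 to 1.5), and H3K4me3 at 94.7 and 55.3, a ratio of 1.71 (1.38 to 2.13). The all-gene median for H3K4me3 was 1.22.

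The genes of the IkB family, NFKBIA and NFKBIZ, had the highest pol II of the 8. NFKBIA, which encodes IkBα (chr14:35401079-35404749, minus strand), had pol II at 184 in A549 and 141 in B2B, with a ratio of 1.30 (1.10 to 1.55), and Med1 at 58.2 and 38.9, a ratio of 1.5 (1.03 to 2.19). NFKBIZ, which encodes the nuclear cofactor IkBζ (chr3:101827991-101861022, plus strand), had its strongest peaks at an inner start 21.4 kb into the gene. There pol II stood at 194 and 154, a ratio of 1.26 (1.07 to 1.49), and Med1 at 77.7 and 47.3, a ratio of 1.64 (1.18 to 2.30). The pol II ratios of both genes lay below the median of 1.33 over all genes with peaks in both lines, and their Med1 ratios lay above the median of 1.04.

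Of the ubiquitin-editing genes, TNFAIP3 differed between the lines in pol II and H3K27ac, and TNIP1 in neither by much. TNFAIP3, which encodes the deubiquitinase A20 (chr6:137867214-137883314, plus strand), had pol II at 111 in A549 and no B2B peak. On the B2B background at this site a level of 32.9 would have been needed for a call. Its H3K27ac stood at 220 and 123, a ratio of 1.78 (1.47 to 2.16), and its Med1 at 18.6 and 17.5, a ratio of 1.06 (0.569 to 1.98). TNIP1, which encodes the A20-binding protein ABIN-1 (chr5:151029945-151093577, minus strand), had its strongest pol II 12.4 kb into the gene, at 128 and 125, a ratio of 1.03 (0.845 to 1.2). BIRC3, which encodes the ubiquitin ligase cIAP2 (chr11:102317484-102339403, plus strand), had pol II at 115 in A549 and no B2B peak, where 18.5 would have been needed. BIRC3 gained a B2B pol II peak when the distance was widened to 5 kb. Its H3K27ac stood at 169 and 67.2, a ratio of 2.52 (1.97 to 3.23), the highest H3K27ac ratio of the 6 genes scored, while its H3K4me3 stood at 29.6 and 33.1, a ratio of 0.896 (0.643 to 1.24).

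By deposited fold the same peaks appeared far higher in A549, and the scale decided the size of that difference. For pol II, the median A549 to B2B ratio of the 6 genes with peaks in both lines was 15.6 by fold and 1.24 by summit level, against 11.7 and 1.33 over all genes with peaks in both. For H3K4me3 it was 12.6 and 1.31 over 8 genes (11 and 1.22 over all), and for H3K27ac 15.1 and 1.26 over 6 genes (9.99 and 1.28 over all). For Med1 it was 1.31 and 1.06 over 7 genes (1.03 and 1.04 over all). The gap between the scales was thus wide for 3 targets, narrow for Med1, and present across genes.

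**Figure D2:**
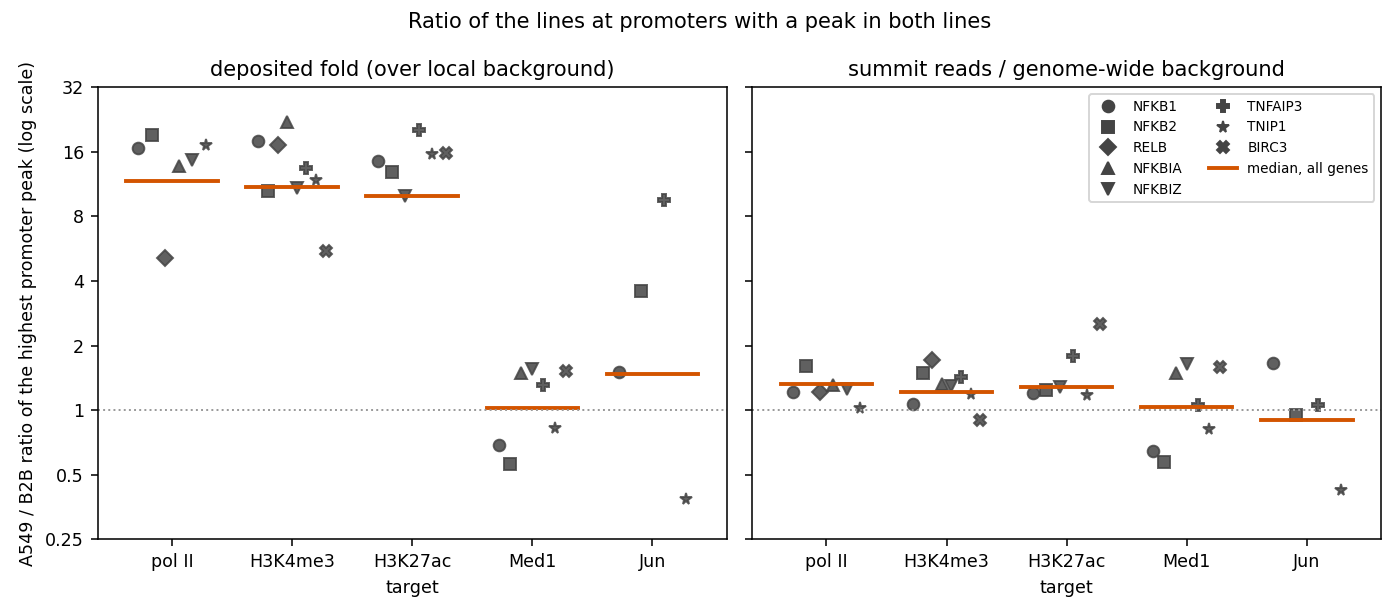
A549 to B2B ratio (log axis) of the highest promoter peak of each gene with a peak in both lines, by target, from the deposited fold in the left panel and from the summit level in the right; orange lines are medians over all genes. For pol II, H3K4me3 and H3K27ac the fold ratios lie between 5.13 and 22.1, while the summit level ratios lie between 0.896 and 2.52.

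To investigate Jun-family occupancy, promoter peaks of the 3 proteins were compared. JunB was found at 6 of 8 genes in A549 (31% of all genes) and at 0 of 8 in B2B (5.28%), NFKB1 and RELB lacking it in A549. Jun was found at 8 of 8 in A549 (38.2%) and 4 of 8 in B2B (25.4%), namely NFKB1, NFKB2, TNFAIP3 and TNIP1. JunD was found at 5 of 8 in A549 (17.8%) and 0 of 8 in B2B (3.22%), NFKB1, TNIP1 and BIRC3 lacking it in A549. Among genes with H3K4me3 in both lines JunB had a share of 44.2% in A549 and 7.12% in B2B. Jun had 53.3% and 33.5%, and JunD 26.7% and 4.44%. The A549 JunB list held 28068 peaks against 8563 in B2B, and with equal lengths 2 genes, NFKB2 and TNFAIP3, kept an A549 JunB peak. The share of all genes at that length was not computed, so these 2 cannot be set against other genes.

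Calls in A549 only were made for JunB at 6 genes (26.7% of all genes), Jun at 4 (19.3%) and JunD at 5 (16.2%). Calls in B2B only were made at none of the 8, against 0.955%, 6.5% and 1.57% of genes. All 3 proteins in A549 with none in B2B were seen at NFKBIA and NFKBIZ, a pattern that 5.77% of genes had. Because the B2B background was high at these promoters, each of the 15 A549-only calls was set against the level that a B2B call would have needed there. A B2B local background could be read for 13 of them, and the A549 level passed the needed one at 5. These were JunB at NFKB2 (25.9 against 19.5), TNFAIP3 (39.5 against 33.4) and TNIP1 (14.2 against 8.23), and Jun at NFKBIZ (75.3 against 51.5) and BIRC3 (42.2 against 21.5). On the backgrounds so read, a B2B peak as high as the A549 one would not have been called at the other 8. A difference was then not detectable there. All 3 NFKBIA calls and all 4 JunD calls with a background were among those 8.

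**Figure D3:**
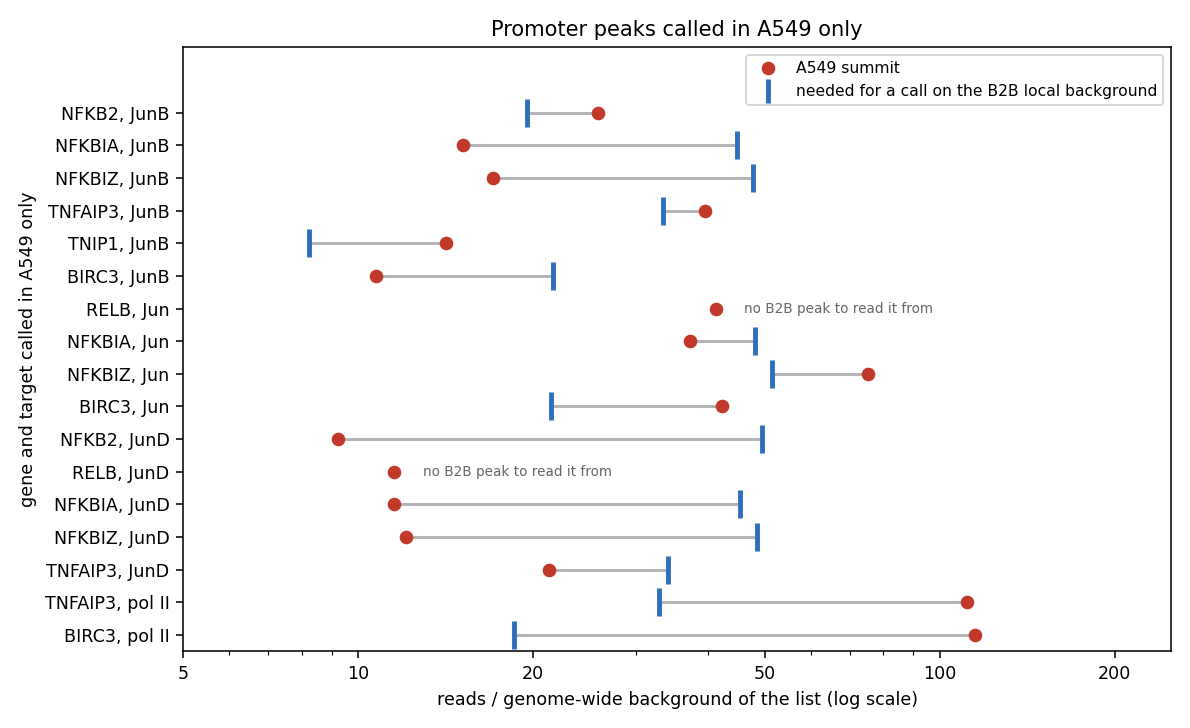
Summit level of each promoter peak called in A549 only (red points) and the level needed for a call on the B2B local background (blue bars), both over the genome-wide background on a log axis. Of 13 Jun-family calls with a B2B background, 5 lie above the needed level, as do both pol II calls, at TNFAIP3 and BIRC3.

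The TNFAIP3 promoter held the strongest JunB and JunD of the 8 genes, 254 bp upstream of the start. In A549, JunB reached a fold of 23.5, Jun of 36.8 and JunD of 13.4, with JunB and JunD at percentiles 96.3 and 96.6 of their lists. In B2B, Jun had a fold of 3.84, at percentile 2.47 of its list. The summits held 79 A549 reads and 87 B2B reads, and the ratio of summit levels was 1.06 (0.773 to 1.46), so Jun itself did not differ beyond counting error. This is the window printed above with an AP-1 and a kappaB motif.

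At the other promoters the A549 calls were weaker. NFKBIA had all 3 proteins about 0.8 kb into the gene, JunB with a fold of 8.02, Jun with 15.9 and JunD with 6.14. NFKBIZ had them at its inner start, with JunB at 7.55, Jun at 29.1 and JunD at 5.78. RELB had Jun at 14 and JunD at 4.67, at the window printed above with a kappaB motif and a CRE. NFKB2 had JunB at 12.7 and Jun at 23 near its 3′ end, and JunD at 4.09 at its start. BIRC3 had JunB at 5.77 and Jun at 16.1 at its start, and TNIP1 had JunB at 8.47. By the highest peak of each gene, Jun had a higher fold than the other members of the family found there, as it did at TNFAIP3. The whole A549 lists ran in the same order, with median folds of 9.34 for Jun, 6.88 for JunB and 5.57 for JunD. By rank within its own list, Jun stood lower at TNFAIP3 (percentile 94.6) than JunB and JunD. It also stood lower at TNIP1 (52.1, against 65.1 for JunB), and higher at the other genes with such a pair.

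Of the other 3 genes with promoter Jun in both lines, NFKB1 had its calls at different sites, and NFKB2 and TNIP1 had shared ones. The NFKB1 calls lay 1.1 kb from the outermost start in A549 and 34.2 kb in B2B. NFKB2 shared a site near its 3′ end, 7.9 kb from the outermost start, where 59 A549 reads and 73 B2B reads gave a ratio of 0.945 (0.659 to 1.35). At the outermost TNIP1 start Jun was higher in B2B, where 12 A549 reads and 77 B2B reads gave a ratio of 0.182 (0.0903 to 0.337). A B2B-only Jun peak of fold 16.6 lay 0.6 kb further in, at the TNIP1 window printed above with its AP-1 motif. The outermost TNIP1 start was the 1 region of those compared whose Jun interval lay below 1, and the strongest pol II of the gene lay elsewhere.

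In B2B, Rad21 was found at 8 of 8 promoters (67.9% of genes), and CTCF, which binds insulators and loop anchors, at 6 of 8 (50.1%), RELB and NFKBIZ lacking it. The NFKB1 CTCF peak lay near an inner start 108.9 kb into the gene, and the highest TNIP1 one lay 41.7 kb in. From the outermost start alone, 5 genes had CTCF and 6 had Rad21, and the shares of all genes were not computed for that setting. The Rad21 level ranged from 70.2 at BIRC3 to 378 at TNFAIP3.

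Within 100 kb, 85 Jun-family regions lay around the 8 genes. Both lines shared 24 of them (28.2%), 36 (42.4%) were found in A549 only and 25 (29.4%) in B2B only. The shares over all 72011 regions were 26.5%, 34.1% and 39.4%. The genes had a median of 10 regions against 7 over all genes. Regions were sought around every annotated start, of which the 8 genes had a median of 12 against 5, so more sequence was searched. The balance varied between them: RELB had 7 regions in A549 only and 0 in B2B only, and NFKBIA had 9 and 3, while TNFAIP3 had 0 and 2 and BIRC3 had 3 and 7. NFKB1 had 4 and 3, NFKB2 7 and 4, NFKBIZ 3 and 4, and TNIP1 3 and 2.

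Each class was described by the same features of its own line, with no test and no share over the regions of the genome beside them. Of the 36 in A549 only, 12 lay within 3 kb of a start of the 8 genes, 20 overlapped A549 H3K4me3, 28 overlapped A549 pol II and 12 had Jun alone. Of the 25 in B2B only, 2 lay within 3 kb, 1 overlapped B2B H3K4me3, 2 overlapped B2B pol II and 22 had Jun alone. The lists differed in length, with 45047 Jun, 8563 JunB and 8597 JunD peaks in B2B. In A549 they held 35602, 28068 and 9639. Jun alone depends on these lengths, and none of these differences can be read as particular to the 8 genes. The 36 regions held 59 A549 calls, and at 39 of these a B2B local background could be read from peaks of other targets. The A549 level passed the level needed for a B2B call there at 6. The B2B-only regions held 28 B2B calls, and an A549 local background could be read at 2. The B2B level passed the level needed for an A549 call at both. At the genome-wide background of the other line, all 59 A549 calls and all 28 B2B calls would have passed. The number of A549-only regions thus rested in part on sites where the B2B lists could not have shown a peak of that height.

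**Figure D4:**
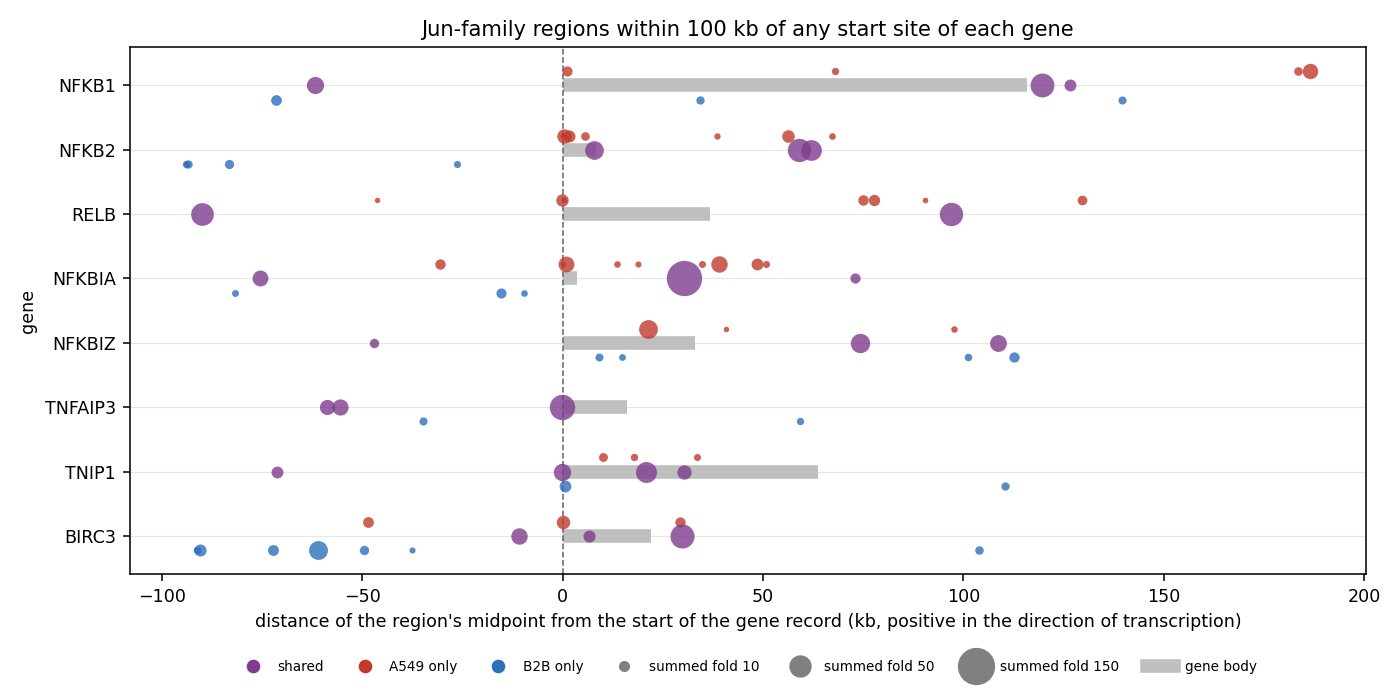
Midpoint of each Jun-family region by its distance in kb from the start of the gene record (positive in the direction of transcription), coloured as shared, A549 only or B2B only, with point area by summed fold and the gene body in grey. RELB has 7 regions in A549 only and none in B2B only, and BIRC3 has 7 in B2B only against 3 in A549 only.

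The regions named next had the highest summed Jun-family fold of their gene and class. The strongest, between genes downstream of NFKBIA (chr14:35374218-35374861), lay 30.2 kb from its start. In A549, JunB had a fold of 43.3, Jun of 63.2 and JunD of 19.3, and in B2B, JunB had a fold of 6.48 and Jun of 17.6. Jun held 168 A549 reads and 49 B2B reads, with a ratio of 4.01 (2.90 to 5.63), at the AP-1 motif printed above. A region 74.3 kb from the NFKBIZ start had 81 and 18 Jun reads, a ratio of 5.26 (3.13 to 9.32), and no motif match in its window. Upstream of BIRC3 at chr11:102256288-102256642, in contrast, B2B alone had all 3 proteins, JunB with a fold of 7.08, Jun with 28.7 and JunD with 6.92. That region lay 61 kb from the BIRC3 start, and the nearest coding start was that of YAP1, 29492 bp away. The strongest shared region of BIRC3, 29.7 kb from its start, lay at the start of the neighbouring BIRC2, with 98 and 101 Jun reads and a ratio of 1.1 (0.85 to 1.51).

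Of the 23 regions with Jun in both lines, 15 had the higher summit level in A549, against 48.3% of such regions in the genome, and their median ratio was 1.17. The interval lay above 1 at 7 regions and below 1 at 1, the TNIP1 start. Ratios ran from 0.182 to 5.26, so most regions stood within counting error of equal occupancy.

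**Figure D5:**
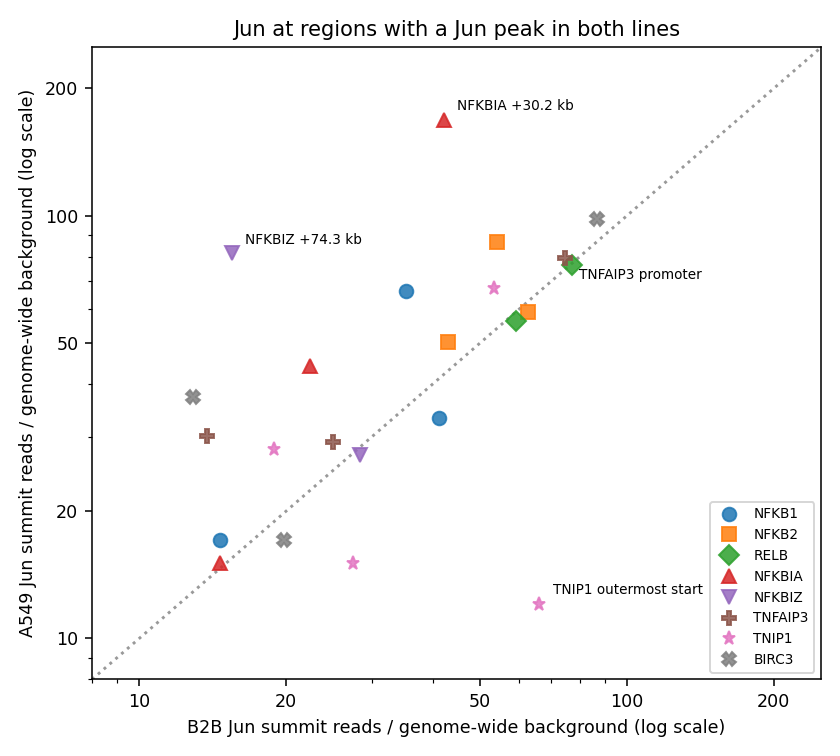
Jun summit level in A549 against that in B2B (log axes) at the 23 regions with Jun in both lines, each point a region marked by its gene, with a dotted line of equal levels. The regions near NFKBIA (169 against 42.1) and NFKBIZ (81.3 against 15.5) lie furthest above the line, and the TNIP1 start (12.1 against 66.1) furthest below it.

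Within 50 bases of the summit, an AP-1 motif lay in 42.4% of the 85 regions, against 35.1% of all Jun-family regions and 1.6% of flanking windows. Its share was 58.3% of shared regions (51.5% in the genome), 25% of A549-only regions (29.7%) and 52% of B2B-only regions (28.7%). Over the 85 regions kappaB was in 4 (4.71%, against 1.72% of all regions) and CRE in 3 (3.53%, against 1.07%).

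Another 51 genes of the pathway were taken as lists of subunits, inhibitors, kinases, adaptors, negative regulators and targets. JunB was found at 32 of them in A549 (62.7%, against 31% of all genes) and at 7 in B2B (13.7% against 5.28%). Jun was found at 35 (68.6% against 38.2%) and 20 (39.2% against 25.4%). JunD was found at 20 (39.2% against 17.8%) and 4 (7.84% against 3.22%). H3K4me3 was found at 51 and 49, so the shares given above for genes with this mark in both lines are the nearer comparison. Pol II was found at 44 of 44 scored in A549 (69.6% of all genes) and 43 of 51 in B2B (50.9%). The pattern of NFKBIA and NFKBIZ, with all 3 proteins in A549 and none in B2B, recurred at 7 of the 51, against 5.77% of all genes. The reverse was seen at 0. The share of this pattern among genes with H3K4me3 in both lines was not computed, so the nearer comparison is missing for it. The 7 genes are named next. They were RELA and REL, which encode NF-kB subunits, IKBKB, a kinase of IkB, SHARPIN, of a ubiquitin ligase complex, and SOD2, IER3 and BCL2L1, which are target genes. At RELA, JunB had an A549 fold of 5.70, Jun of 15.5 and JunD of 4.62. Whether B2B peaks of that height could have been called at these 7 genes was not tested.

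The genes whose promoter pattern was nearest to each of the 8 were sought on chromosomes 1 to 12, over 200 kb away, first by equal calls in the lists scored and then by the smallest Euclidean distance of log2(fold + 1). For TNFAIP3, 35 of 12568 genes had equal calls in all 14 lists, and the nearest was PPP1R14B, at a distance of 1.33. For BIRC3, 57 of 12564 did, and the nearest was THEM6, at 1.27. The nearest were DRAP1 for NFKBIA (13 lists, distance 0.70), ZNF143 for NFKBIZ (0.74), PSMD9 for NFKB2 (0.82), R3HDM2 for NFKB1 (0.97), URGCP for TNIP1 (1.24) and CRELD1 for RELB (11 lists, 0.82).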

How the data were processed

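Chromatin immunoprecipitation followed by sequencing had been done in 2 cell lines, and the data used here were 16 narrowPeak lists. According to its methods section, alignment by the authors was to hg38 with Bowtie2 2.4.4. They removed duplicates, merged replicates, used SAMtools 1.13 for CPM scaling, and MACS2 2.2.7.1 gave the peaks. Caller options and controls were not given in the sources used here. The deposited score equals −log10 q multiplied by 10 without decimals (up to rounding). The fold enrichment was deposited by the authors as a ratio of summit pileup to local background, and significance was deposited as −log10 p and −log10 q. The lowest −log10 q of each list lay between 2.00 and 2.15. No totals of reads were used here, so depth was read only from the backgrounds described next.

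The member genes, the gene lists and the measures were chosen with earlier results of these data known. Fold and p-value of each peak were solved for the pileup at its summit and the local background, where fold is (pileup + 1) over (background + 1) and p is the Poisson probability of more reads than the pileup. Pileups came out whole within 0.1 reads in 100% of peaks of every list, and 100% of 2849 simulated peaks were recovered. The lowest background of a list was taken as its genome-wide background, and the reads needed for a call were those whose −log10 p reached the lowest of the list. Where a list had no peak at a site, its local background was taken from a nearby peak of another target of the same line. A region was called shared where peaks of both lines overlapped by 1 bp or more after merging. Intervals of ratios of 2 summits are exact 95% intervals from the binomial distribution of their reads and cover counting error only. A gene past the last peak of a list that ended early was not scored in it. Gene positions were from GENCODE release 44, promoter sequences from RefSeq, and other sequence from hg38. Named regions were those with the highest summed Jun-family fold of each gene and class, and other pathway genes were named where all 3 Jun-family proteins had a promoter peak in 1 line and none in the other. Python 3.11.15, NumPy 2.4.6, SciPy 1.17.1, pysam 0.24.0, samtools 1.23.1 and matplotlib 3.10.9 were used. Interval operations equalled bedtools 2.31.1 on 4 of 4 simulated sets. Alternatives were other distances, a stricter q-value, the summit as the measure of position, lists of equal length and other motif windows.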

Additional observations from a re-analysis of the deposited data

How the results depend on the processing

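Counts of promoter peaks and of regions and the motif shares of regions were recomputed under alternatives, changing 1 choice at a time. The pathway counts, the shares over all genes, the genes of nearest pattern, the promoter motif shares and single ratios of summit level and their intervals were not. Of 96 counts of genes with a promoter peak, 93 stayed within 1.5 times the value reported. With the longer list of each target cut to the length of the shorter, 2 genes kept an A549 JunB peak (NFKB2 and TNFAIP3), because fewer A549 peaks were counted by construction. At a distance of 1 kb, or from the outermost start alone, 2 genes had a B2B Jun peak (TNFAIP3 and TNIP1). At a distance of 5 kb, 7 genes had a B2B pol II peak, BIRC3 among them, so its A549-only pol II call depended on the distance. Regions within 50 kb numbered 13 shared and 11 in B2B only, and regions within 200 kb numbered 38 shared and 59 in A549 only, as wider or narrower windows hold more or fewer regions. Regions in A549 only outnumbered those in B2B only under all 6 alternatives, by 6 to 27 regions against 11 as reported. The AP-1 motif share over all 85 regions was 44.7% under both alternatives. After the data were seen, the 15 Jun-family promoter calls in A549 only were also counted where the A549 level reached the level needed on the B2B background, which left 5, and Jun at shared regions was compared by fold, which put 17 of 23 higher in A549. No paired analysis was possible because the replicates of each group had been merged before peaks were called. The high local background of the B2B lists limits what the absence of a B2B peak can show at promoters.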
